A study of Homo sapiens with 9 samples.

Results

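The macroautophagy machinery was followed through 38 genes: the kinases and complexes that start an autophagosome, the proteins that build and lipidate it, the receptors that load it and the factors that fuse it with lysosomes. The members were fixed by name. Each was read from the probe sets that the array annotation assigns to that gene alone, taking first the probe set with the highest mean log2 intensity. All 38 were measured, among 19775 genes on the array, and they held 107 such probe sets, 10 members having 1 each. A further 4 probe sets that the annotation shares between a member and another gene were left out.

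RNA came from HT1080, an established human fibrosarcoma line, grown on top of a gel of fibrillar bovine collagen at 1.7 mg/ml, per the growth protocol, which also mentions a denser preparation. Cells were seeded in medium with 10% serum and given 24 h to adhere before treatment. One group of 3 arrays was labelled untreated, with a vehicle in its titles, and the other 2 groups received a protease inhibitor mix for 4 h or 24 h, 3 arrays each. The mix held 100 µM GM6001, which blocks metalloproteinases, 50 µM pepstatin A, which blocks aspartic proteases, 250 µM E64, which blocks cysteine proteases, and 2 µM each of aprotinin and leupeptin. Leupeptin and aprotinin block serine proteases, and leupeptin also blocks cysteine proteases. The labels do not say what the vehicle was or when untreated cells were harvested. All groups therefore share 1 cell line and 1 matrix, and the design text calls the replicates biological.

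Autophagy encloses cytoplasm in a growing double membrane, the phagophore, and delivers it to lysosomes, where cathepsins and other acid hydrolases break it down. The ULK1 kinase complex and the VPS34 lipid kinase complex start the process, and a pair of ubiquitin-like conjugation steps attach proteins of the ATG8 family (LC3 and GABARAP) to the membrane. Receptors such as p62, encoded by SQSTM1, bind cargo and ATG8 proteins and are themselves degraded in lysosomes. Inhibitors of cysteine and aspartic proteases, such as E64, leupeptin and pepstatin A, can block lysosomal proteolysis, so that cargo and receptor proteins build up. Whether lysosomal proteolysis was blocked in these cells was not measured. The arrays measured transcripts, not proteins or autophagic flux. They also compare bulk RNA, so a change in RNA per cell and a change in the mix of cells cannot be told apart.

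Values are the deposited linear intensities, scaled to a mean of 100 on each array after trimming 2% at either end, and are given as mean ± SD (n = 3). Differences were tested with limma on log2(intensity + 16) over all 19775 genes, and every adjusted p below is Benjamini-Hochberg adjusted over all of them, with a threshold of 0.05. Fold changes on that scale understate the change of dim genes. All 7 mesenchymal markers had means far above 16 (VIM 10469 and FN1 1382, for example). Of 15 epithelial, leukocyte and endothelial markers, 13 had means below 16 and none was at 0, while CD79A went from 27.8 untreated to 43.7 at 24 h and PECAM1 from 26.5 to 51.1. For ACTB the ratio of 5' to 3' probe signal, which falls as RNA degrades, went from 0.893 ± 0.0343 in untreated arrays to 0.723 ± 0.132 after 4 h and 0.697 ± 0.0383 after 24 h. The same ratio for GAPDH did not fall, with means of 1.05, 1.07 and 1.08 in the same order. Poly-A spike RNAs had a mean log2 intensity of 9.45 ± 0.08, 10.32 ± 0.21 and 10.74 ± 0.04. Replicate 2 of the 4 h group stood apart from its group: its score on the first principal component was -13.4, against 8.63 and 15.5 for the other 4 h arrays and between -23.3 and -18.2 for untreated arrays. The ACTB ratio of replicate 2 at 4 h was 0.871, against 0.682 and 0.615 for the other 4 h arrays. Untreated arrays had ratios between 0.855 and 0.922. By group mean, the ACTB ratio, the spike signal and both markers moved with treatment. The part of these array measures and markers in the results below was not tested.

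After 24 h most autophagy transcripts were measured slightly above their untreated level, and WIPI1 was the 1 of 38 members that passed the test. In all, 27 of 38 lay above 0, with a median log2 change of 0.22, where 51.6% of all genes lay above 0 and their median was 0.01. The 3 treated arrays were all above the 3 untreated arrays for 19 members and all below for 3 (BECN1, BNIP3 and NBR1), against 12.8% and 12.2% of all genes (25% in either direction). Adjusted over all genes, 1 member was higher and none lower, where 0.217% and 0.248% of all genes were called (0.465% in either direction). At an unadjusted p under 0.05, 13 members were higher and 2 lower, against 8.17% and 7.62% of all genes (15.8% in either direction). With the mean over each gene's probe sets in place of the brightest, the members' median was 0.17 and 31 lay above 0. The shares of all genes, here and below, include dim genes: 39.6% of all genes had a mean below the pseudocount of 16, against 1 member. They are thus not shares of genes as bright as the members, and such shares were not computed for arrays without overlap.

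At 4 h the members' median log2 change was 0.03, 23 lay above 0 and 15 below, and with each array centred on its median the members' median was -0.01, with 18 above 0. No member passed the adjusted test in limma, where 0.248% of all genes did (0.233% higher and 0.0152% lower). At an unadjusted p under 0.05, 6 were higher and 2 lower, against 6.93% and 5.43% of all genes (12.4% in either direction). Treated and untreated arrays did not overlap for 6 higher and 2 lower members, 8 of 38 against 17.5% of all genes (9.37% higher and 8.14% lower). Without replicate 2 of the 4 h group, 12 of 38 did not overlap, and 32.3% of all genes. The 6 higher members (ATG101, PIK3R4, WIPI1, ATG2B, GABARAPL1 and STX17) and the 2 lower ones (BECN1 and BNIP3) did not overlap in the same direction at 24 h. Both comparisons use the same untreated arrays.

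**Figure D1:**
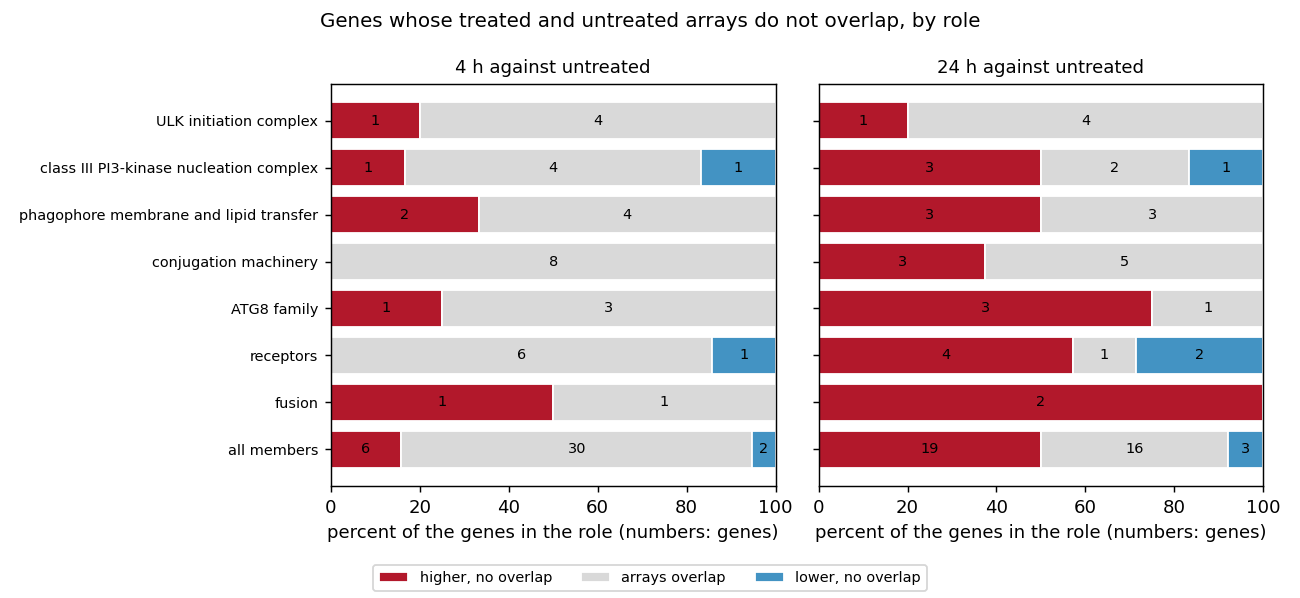
Share of genes in each role, in percent, whose 3 treated arrays all lie above (red), all lie below (blue) or overlap (grey) the 3 untreated arrays, at 4 h (left) and 24 h (right). Numbers on the bars are genes. All conjugation genes overlap at 4 h, where 17.5% of all genes did not. At 24 h the 2 fusion genes and 3 of 4 ATG8 genes are higher without overlap, against 1 of 5 in the ULK complex. Over all genes the share higher at 24 h was 12.8%, and differences between roles were not tested.

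**Figure D2:**
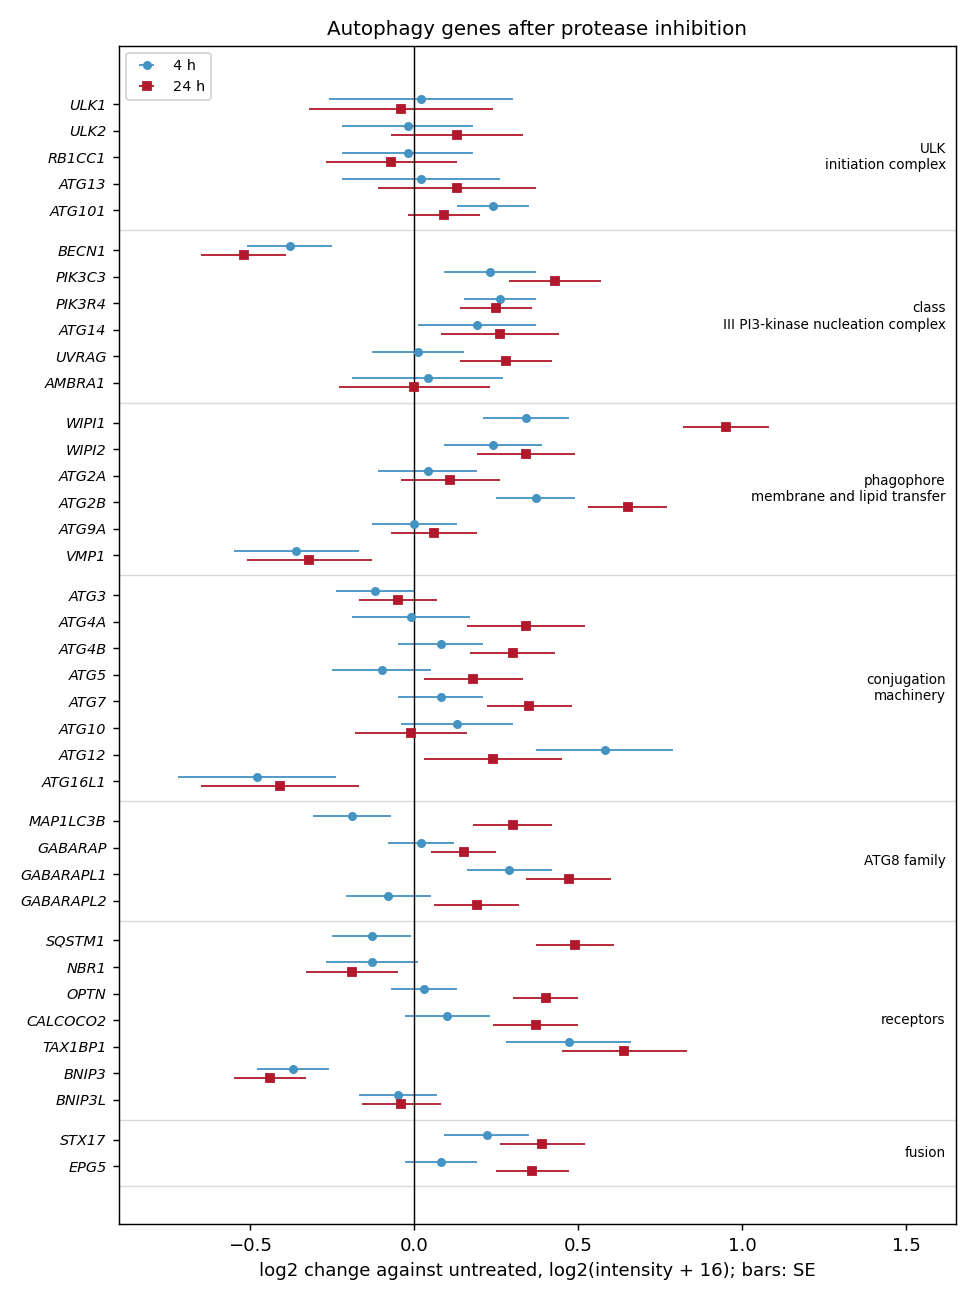
Change of each member against untreated cells at 4 h (blue circles) and 24 h (red squares) on the log2(intensity + 16) scale, with the standard error of the fit as bars, grouped by role. WIPI1 lies farthest right at 24 h (0.95), BECN1 farthest left (-0.52), and the 5 genes of the ULK complex lie between -0.07 and 0.13 at 24 h.

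Among the genes of the phagophore membrane, 3 of 6 were higher at 24 h without overlap (12.8% of all genes), 1 of them past the threshold (0.217% of all genes). WIPI1, which binds phosphatidylinositol 3-phosphate on the forming membrane, measured 195, 215 and 228 untreated, 319, 248 and 258 at 4 h, and 444, 421 and 415 at 24 h. The groups were fully separated, with 4 h between the others. The 24 h rise was 1.94-fold (log2 change 0.95 ± 0.13 SE, limma adjusted p = 0.0278). Without any 1 of the 6 arrays compared, the log2 change stayed between 0.90 and 1.00, but the adjusted p lay between 0.0883 and 0.159 and the call was lost. At 4 h its log2 change was 0.34 ± 0.13 (limma adjusted p = 0.323).

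ATG2B, a bridge that transfers lipid to the phagophore, measured 56.2, 53.7 and 55.1 untreated, 74.0, 71.1 and 82.5 at 4 h, and 83.9, 102.9 and 101.5 at 24 h. Its arrays separated by group as those of WIPI1 did, and its log2 change at 24 h was 0.65 ± 0.12 (limma adjusted p = 0.0502), just outside the threshold. Without replicate 2 of the 4 h group, which shares in the estimate of the spread, ATG2B passed too (adjusted p = 0.0417). It was called in 4 of 19 alternative settings, with adjusted p up to 0.186 when 1 array was left out and 0.511 with the mean over probe sets. WIPI2, which recruits the conjugation machinery to the membrane, measured 850 ± 81 untreated and 1082 ± 93 at 24 h (limma adjusted p = 0.317). ATG2A, ATG9A, the lipid scramblase that seeds the phagophore, and VMP1, a scramblase of the endoplasmic reticulum, had 24 h log2 changes of 0.11, 0.06 and -0.32 with overlapping arrays.

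The 250 bases before the start site are printed for the 2 higher and 2 lower members with the smallest p at 24 h among those with a single start site in the RefSeq promoter table (GRCh38.p14). They show what lies in front of these 4 genes, of which WIPI1 alone passed the adjusted test. Sequences run 5' to 3' on the gene's strand, which is the minus strand for all 4, and capitals mark motif matches on either strand.
WIPI1: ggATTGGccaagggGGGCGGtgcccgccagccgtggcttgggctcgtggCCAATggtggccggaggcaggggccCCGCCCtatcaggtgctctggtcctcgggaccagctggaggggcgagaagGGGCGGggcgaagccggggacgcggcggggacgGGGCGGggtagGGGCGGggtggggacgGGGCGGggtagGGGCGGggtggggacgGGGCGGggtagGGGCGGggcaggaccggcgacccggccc
ATG2B: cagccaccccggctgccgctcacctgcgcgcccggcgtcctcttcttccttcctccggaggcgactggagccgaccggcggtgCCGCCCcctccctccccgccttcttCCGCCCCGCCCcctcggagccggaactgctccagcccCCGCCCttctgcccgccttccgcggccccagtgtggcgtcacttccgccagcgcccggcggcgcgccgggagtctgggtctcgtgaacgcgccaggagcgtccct
BECN1: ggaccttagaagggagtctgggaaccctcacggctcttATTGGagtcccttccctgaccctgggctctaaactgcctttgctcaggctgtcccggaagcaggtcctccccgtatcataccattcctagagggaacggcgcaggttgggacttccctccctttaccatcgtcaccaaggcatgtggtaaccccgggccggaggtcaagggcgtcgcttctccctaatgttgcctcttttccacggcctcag
BNIP3: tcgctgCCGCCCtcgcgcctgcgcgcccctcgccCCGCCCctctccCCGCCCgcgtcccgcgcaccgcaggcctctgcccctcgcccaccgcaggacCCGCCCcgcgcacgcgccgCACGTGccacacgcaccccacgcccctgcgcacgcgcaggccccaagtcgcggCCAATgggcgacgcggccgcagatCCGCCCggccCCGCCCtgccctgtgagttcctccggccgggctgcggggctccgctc

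The windows are chr17:68457497-68457746 for WIPI1, chr14:96363342-96363591 for ATG2B, chr17:42823880-42824129 for BECN1 and chr10:131981924-131982173 for BNIP3. WIPI1 holds 9 GC boxes (GGGCGG) and 2 CCAAT boxes, ATG2B 4 GC boxes, BNIP3 6 GC boxes, 1 CCAAT box and 1 E-box (CACGTG), and BECN1 1 CCAAT box. GC boxes were found in 42.6% and CCAAT boxes in 32% of all 35116 windows of this length, and E-boxes in 6.34%. The E-box of BNIP3 contains the hypoxia response core ACGTG, which 18.5% of windows hold, and which overlaps it on both strands. This core is not particular to BNIP3: it was found for 13 of the 33 members in the table. Searched on both strands, the core of the lysosomal CLEAR element (TCACGTGA, which contains an E-box) and the ATF4 element TGATGCAAT had no match in the 41 windows of the 33 members in the table, against 0.854% and 0.216% of all windows. At such low shares the lack of a match in 41 windows is no result about the members. E-boxes were found for ATG3, ATG14 and BNIP3, the antioxidant response core TGACNNNGC for ATG101, CALCOCO2 and MAP1LC3B (10.9% of all windows), and the FOXO site GTAAACA for CALCOCO2 (2.98%). GC and CCAAT boxes were added to the search after the other motifs gave no match in WIPI1, ATG2B and BECN1. These matches describe letters in a window and were not tested against the expression values.

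In the ULK initiation complex 1 of 5 members did not overlap at 24 h, near the 25% of all genes. This was ATG101, a stabilising subunit, which measured 733, 749 and 779 untreated, 954, 915 and 821 at 4 h, and 824, 791 and 797 at 24 h. It was highest at 4 h, with a log2 change of 0.24 ± 0.11 there and 0.09 ± 0.11 at 24 h (limma adjusted p = 0.404 and 0.751). ULK1, the kinase itself, measured 24.7 ± 4.31 untreated and 27.8, 7.6 and 42.6 at 24 h, near the pseudocount and with treated arrays on both sides of the untreated ones. ULK2, a second kinase of the family, had a mean of 10.5 over the 9 arrays, below the pseudocount, so little can be read from its log2 change of 0.13 ± 0.20. The scaffold RB1CC1 and the regulatory subunit ATG13 had 24 h log2 changes of -0.07 ± 0.20 and 0.13 ± 0.24, with 95% intervals from -0.51 to 0.37 and from -0.41 to 0.68. A moderate change of these members in either direction was thus not detectable with 3 arrays a group. A second probe set of RB1CC1 measured 165 ± 18, 250 ± 71 and 259 ± 40 in the 3 groups. Its treated arrays lay above the untreated ones at both times, with log2 changes of 0.52 ± 0.20 and 0.60 ± 0.20. Neither passed when all probe sets were tested together (limma adjusted p = 0.351 at 4 h and 0.2 at 24 h).

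The members of the VPS34 complex, which makes phosphatidylinositol 3-phosphate on the phagophore, did not go one way. BECN1, the beclin 1 scaffold, measured 533, 582 and 518 untreated, 361, 489 and 404 at 4 h, and 377, 379 and 368 at 24 h. Every treated array was below every untreated one at both times. The log2 change was -0.52 ± 0.13 at 24 h and -0.38 ± 0.13 at 4 h, and neither passed (limma adjusted p = 0.105 and 0.284). PIK3C3, the catalytic subunit VPS34, measured 766, 754 and 784 untreated and 1099, 1021 and 1000 at 24 h, with no overlap (log2 change 0.43 ± 0.14, limma adjusted p = 0.183). At 4 h its replicates 1 and 3 measured 1008 and 1000 and replicate 2, the array that stood apart, measured 725. PIK3R4, the regulatory subunit VPS15, measured 352 ± 9, 425 ± 30 and 421 ± 26 in the 3 groups, with both treated groups above the untreated arrays. Its other probe sets were dim, and the mean over probe sets gave -0.03 at 24 h and -0.08 at 4 h. UVRAG, a subunit of the complex that acts on endosomes, was higher at 24 h without overlap (125 ± 16 and 155 ± 21, limma adjusted p = 0.36), whereas ATG14, the autophagy-specific subunit, and AMBRA1 overlapped, with log2 changes of 0.26 and -0.00.

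In the conjugation machinery 3 of 8 genes were higher at 24 h without overlap (12.8% of all genes). None of the 8 was at 4 h, where 9.37% of all genes were, so that the 0 is no result about the role. ATG7, the E1-like enzyme of both conjugation steps, measured 310, 329 and 342 untreated, 393, 340 and 309 at 4 h, and 455, 417 and 391 at 24 h. The 4 h arrays spread across the untreated range, and the 24 h arrays lay above it (log2 change 0.35 ± 0.13, limma adjusted p = 0.222). ATG4B, the protease that primes and delipidates ATG8 proteins, measured 431 ± 21 untreated and 535 ± 45 at 24 h, and ATG5, which joins ATG12 in the E3-like complex, 598 ± 49 and 678 ± 27 (limma adjusted p = 0.314 and 0.637). ATG4A measured 106 ± 7 and 141 ± 43, its 24 h replicate 1 standing at 191 against 112 and 121. ATG12 was highest at 4 h (369, 547 and 560, against 407, 299 and 267 untreated, limma adjusted p = 0.306), with overlapping arrays. ATG3 (the E2-like enzyme for ATG8 proteins), ATG10 (the E2-like enzyme for ATG12) and ATG16L1 had 24 h log2 changes of -0.05, -0.01 and -0.41, all with overlap.

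All 4 ATG8 genes lay above 0 at 24 h, by 0.15 to 0.47 on the log2 scale, where 51.6% of all genes did. They also did under quantile normalization, median centring, pseudocounts of 1 and 64 and the mean over probe sets. These settings use the same arrays and are no separate evidence. None passed the test, where 0.465% of all genes did. MAP1LC3B, which encodes LC3B, measured 716, 742 and 814 untreated, 671, 587 and 733 at 4 h, and 977, 929 and 906 at 24 h. The 4 h and untreated arrays overlapped, and all 24 h arrays lay above both other groups (log2 change against untreated 0.30 ± 0.12, limma adjusted p = 0.264). GABARAPL1 measured 46.3, 39.9 and 58.4 untreated, 60.7, 63.9 and 60.6 at 4 h, and 79.3, 65.1 and 74.0 at 24 h (log2 change at 24 h 0.47 ± 0.13, limma adjusted p = 0.129). Its arrays separated the 3 groups in order of time. GABARAP measured 3254 ± 117 and 3608 ± 170 at 24 h without overlap, and GABARAPL2 1895 ± 95 and 2174 ± 263 with overlap. Probe sets of this family may share signal with close paralogs, so values of single members are uncertain.

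Of 7 receptors, 4 were higher and 2 lower at 24 h without overlap (12.8% and 12.2% of all genes), and none passed in limma, where 0.465% of all genes did. At an unadjusted p under 0.05, 4 receptors were higher and 1 lower, against 8.17% and 7.62% of all genes (15.8% in either direction). SQSTM1 measured 3605, 4157 and 4192 untreated, 3587, 4018 and 3351 at 4 h, and 5520, 5611 and 5615 at 24 h. The 24 h arrays lay close together and above all others, whereas 4 h and untreated arrays overlapped. Its log2 change was 0.49 ± 0.12 against untreated (1.4-fold, limma adjusted p = 0.0977) and -0.13 ± 0.12 at 4 h. OPTN, the ubiquitin-binding receptor optineurin, followed the same course at 410, 382 and 393 untreated, 400, 425 and 385 at 4 h, and 538, 517 and 519 at 24 h (log2 change at 24 h 0.40 ± 0.10, limma adjusted p = 0.114). CALCOCO2, the receptor NDP52, measured 340 ± 19, 368 ± 53 and 443 ± 8 in the 3 groups, and its homolog TAX1BP1 607 ± 95, 860 ± 245 and 950 ± 32. Both were higher at 24 h without overlap and missed the threshold (limma adjusted p = 0.196 and 0.149).

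BNIP3, a mitochondrial receptor induced by hypoxia, measured 1000, 1108 and 1167 untreated, 837, 866 and 824 at 4 h, and 795, 800 and 808 at 24 h. Both treated groups lay below every untreated array, and 24 h lay below 4 h, with log2 changes of -0.44 ± 0.11 and -0.37 ± 0.11 against untreated (limma adjusted p = 0.101 at 24 h and 0.219 at 4 h). With a pseudocount of 64 in place of 16 BNIP3 passed at both times (limma adjusted p = 0.0129 and 0.0391), a setting that called 4.18% and 1.38% of all genes. It passed in 3 of 19 alternative settings at 24 h (adjusted p up to 0.282) and in 1 of 19 at 4 h (up to 0.502). Its paralog BNIP3L measured 572 ± 22, 553 ± 60 and 556 ± 32, with a 24 h interval from -0.31 to 0.23 on the log2 scale. NBR1, a receptor for ubiquitinated cargo, measured 426 ± 12 untreated and 373 ± 32 at 24 h (limma adjusted p = 0.564). Averaged across probe sets, NBR1 had the opposite sign (0.09 on the log2 scale).

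**Figure D3:**
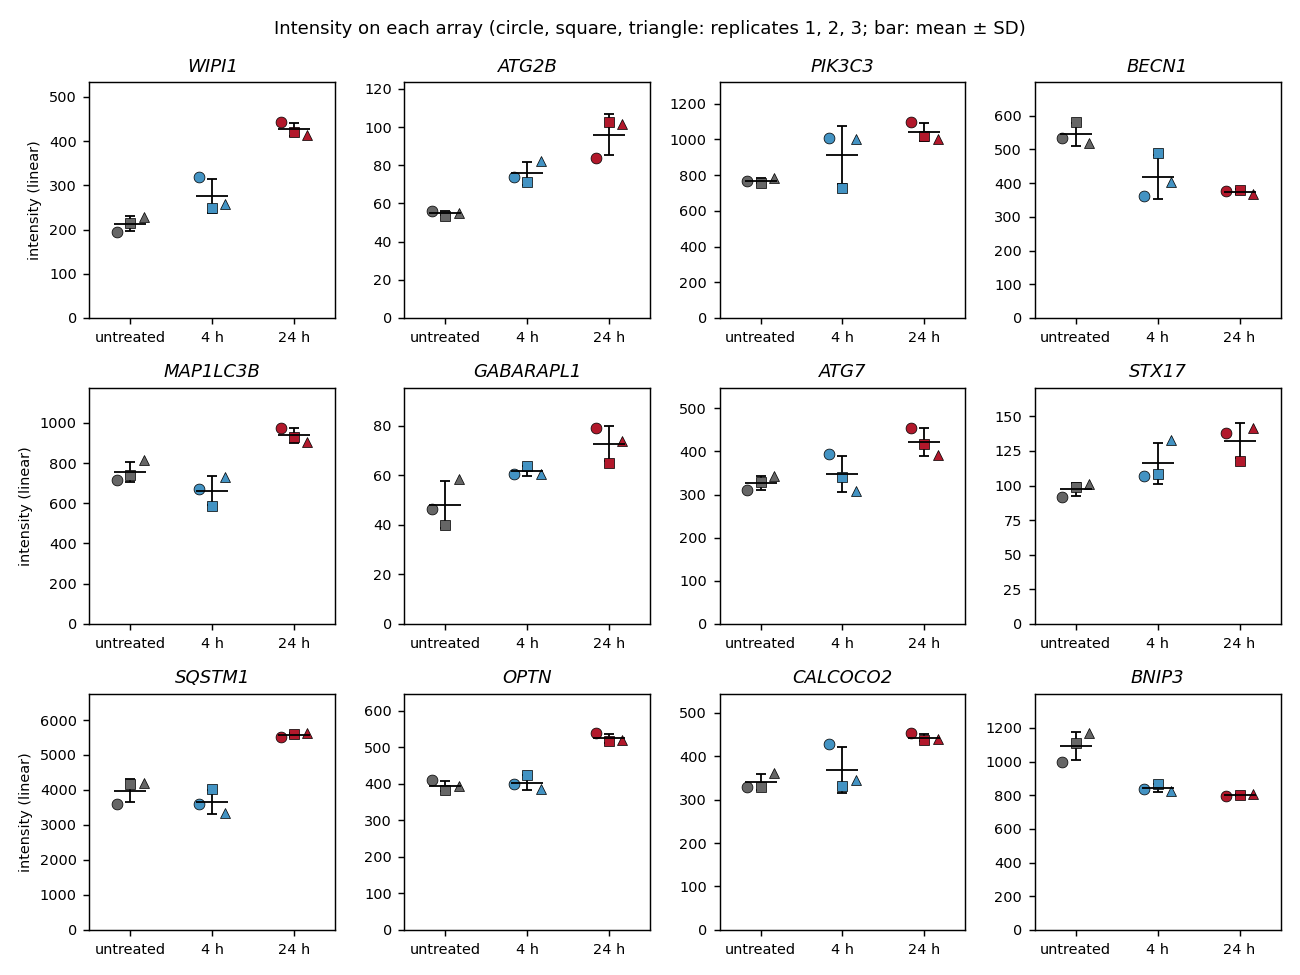
Linear intensity of 12 members on each of the 9 arrays, with replicates 1, 2 and 3 as circle, square and triangle, and mean ± SD in black. WIPI1 and ATG2B step up at each time, SQSTM1, OPTN and MAP1LC3B are higher in the 24 h arrays alone, and BECN1 and BNIP3 are lower in both treated groups. Each panel has its own axis from 0, since levels of different probe sets are not comparable.

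Both fusion genes were higher at 24 h without overlap, where 12.8% of all genes were, and the role holds only these 2 genes. Of their other probe sets with a mean above 16, 2 of 3 for STX17 and 3 of 4 for EPG5 had the same sign. STX17, the SNARE that joins autophagosome and lysosome, measured 91.7, 98.8 and 101.0 untreated, 106.9, 108.1 and 132.8 at 4 h, and 137.7, 117.9 and 141.9 at 24 h (log2 change at 24 h 0.39 ± 0.13, limma adjusted p = 0.172). EPG5, a tether of the same step, measured 99.9, 96.3 and 90.6 untreated, 110.1, 102.3 and 93.7 at 4 h, and 127.3, 127.0 and 127.1 at 24 h (log2 change 0.36 ± 0.11, limma adjusted p = 0.147). For EPG5 the 4 h arrays overlapped the untreated ones, and for STX17 they did not.

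By role, the median log2 change at 24 h was 0.09 for the ULK complex, 0.25 for the VPS34 complex, 0.23 for membrane genes, 0.21 for conjugation genes, 0.25 for ATG8 genes, 0.37 for receptors and 0.37 for fusion genes, against 0.01 over all genes. At 4 h the same medians were 0.02, 0.11, 0.14, 0.03, -0.03, -0.05 and 0.15. With the mean over probe sets most of these medians were closer to 0, at 0.09, 0.12, 0.11, 0.20, 0.18, 0.16 and 0.15 for 24 h in the same order. For 4 h they were 0.02, -0.03, 0.05, 0.06, -0.03, -0.00 and 0.02, so that the VPS34 complex changed sign. The roles hold between 2 and 8 genes and their differences were not tested.

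Between 4 h and 24 h, 28 of 38 members were higher at the later time, with a median log2 difference of 0.12, where 49.2% of all genes lay above 0. No member passed in limma, where 0.142% of all genes did (0.0253% higher and 0.116% lower). At an unadjusted p under 0.05, 6 were higher and none lower, against 5.2% and 6.12% of all genes (11.3% in either direction). The 24 h and 4 h arrays did not overlap for 10 higher members and for BNIP3, which was lower, 11 of 38 against 15.2% of all genes (7.35% higher and 7.85% lower). The smallest adjusted p were those of SQSTM1 (log2 difference 0.61 ± 0.12, limma adjusted p = 0.0931), WIPI1 (0.61 ± 0.13, limma adjusted p = 0.113) and MAP1LC3B (0.49 ± 0.12, limma adjusted p = 0.16). OPTN differed by 0.37 ± 0.10 (limma adjusted p = 0.222) and EPG5 by 0.28 ± 0.11 (limma adjusted p = 0.371).

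Other probe sets of the same genes gave a second reading. Of 46 further probe sets with a mean intensity above 16, which belong to 26 members, 34 had the sign of the brightest probe set at 24 h and 21 did at 4 h. The second probe set of WIPI1 measured 249 ± 21 untreated, 241 ± 25 at 4 h and 343 ± 9 at 24 h, a smaller 24 h change (0.44 ± 0.12) with none at 4 h (-0.04 ± 0.12). The second probe set of SQSTM1 measured 355 ± 40, 381 ± 77 and 767 ± 46, and when all 41091 probe sets named to 1 gene were tested together it rose at 24 h (log2 change 1.08 ± 0.16, limma adjusted p = 0.0486). The brightest probe set of WIPI1 was called there as well (adjusted p = 0.0453), 2 of 107 member probe sets where 0.11% of all were called. Of the other SQSTM1 probe sets with a mean above 16, 1 was higher (205 ± 10 and 296 ± 8) and 1 lower (56.0 ± 2.9 and 35.2 ± 5.4) at 24 h, neither past the threshold.

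For BECN1, BNIP3, OPTN, MAP1LC3B and GABARAPL1 the second probe set had the same sign, with 24 h log2 changes of -0.33, -0.24, 0.17, 0.04 and 0.77. The other probe sets of ATG2B had changes of 0.10, 0.04 and -0.10, far from the 0.65 of its brightest, and those of TAX1BP1 0.11 and 0.24 against 0.64. Single probe sets of ATG7 (-0.24), STX17 (-0.18), EPG5 (-0.58) and WIPI2 (-0.37) had the opposite sign. So did those of RB1CC1 (0.60), NBR1 (0.62), ATG3 (0.40), ATG16L1 (0.23), AMBRA1 (0.15) and BNIP3L (0.06), whose brightest probe sets were not higher.

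**Figure D4:**
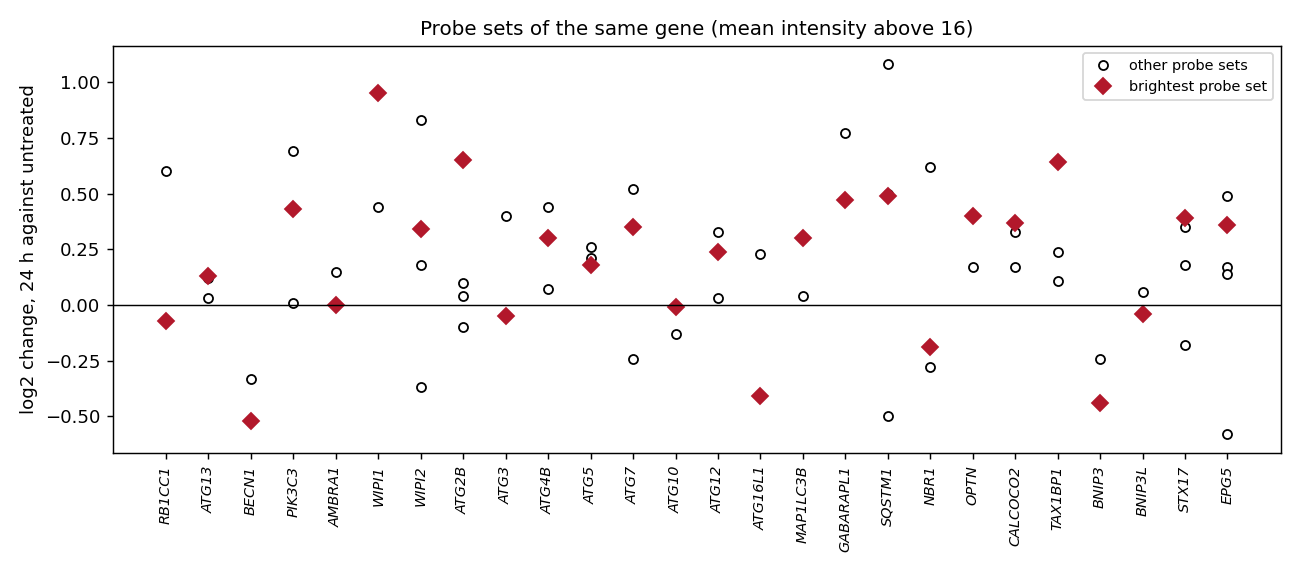
Log2 change at 24 h against untreated cells for the brightest probe set of each member (red diamonds) and for its other probe sets with a mean intensity above 16 (open circles), for the 26 members with more than 1. For WIPI1 both lie above 0 (0.95 and 0.44), for BECN1 both below (-0.52 and -0.33), and for SQSTM1 they spread from -0.50 to 1.08.

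A wider list of 68 pathway genes, 67 of them measured, was read beside the members. None passed in limma for 4 h, 24 h or 24 h against 4 h, where 0.248%, 0.465% and 0.142% of all genes did. At such shares the 0 is no result about the list. At an unadjusted p under 0.05 there were 14, 15 and 9 in the same order (12.4%, 15.8% and 11.3% of all genes). At 24 h, 11 were higher and 12 lower without overlap, where 12.8% and 12.2% of all genes were, and the median log2 change was 0.06. FOXO1 passed at 24 h in 7 of 19 alternative settings. FOXO1, a transcription factor of the fasting response, was closest to the threshold, at 26.7, 25.4 and 25.3 untreated and 49.5, 45.9 and 45.8 at 24 h (log2 change 0.59 ± 0.11, limma adjusted p = 0.0502). Its change with the mean over probe sets was 0.07. NCOA4, the ferritin receptor (0.44 ± 0.14), and ATG4D, a further ATG4 protease (0.41 ± 0.12), were higher at 24 h without overlap. YKT6, an autophagosomal SNARE (-0.43 ± 0.14), and AKT1S1, an inhibitory subunit of mTORC1 (-0.50 ± 0.15), were lower without overlap (limma adjusted p between 0.14 and 0.189 for these 4).

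Among the 11 genes of the SNARE, tether and Rab group none was higher at 24 h without overlap and 3 were lower. Among 17 upstream kinase genes none was higher and 3 lower. The other groups held more higher than lower genes: 4 and 2 of 17 paralogs and complex partners, 3 and 1 of 14 other receptors, and 4 and 3 of 8 transcription factors. Over all genes 12.8% were higher and 12.2% lower, and no difference from that share was tested. TFEB, the master regulator of lysosomal and autophagy genes, is named here after its values were seen. It measured 31.5, 34.4 and 40.5 untreated, 18.5, 18.7 and 15.2 at 4 h, and 25.5, 26.3 and 24.0 at 24 h, near the pseudocount. Every treated array was below every untreated one, with log2 changes of -0.62 ± 0.11 and -0.32 ± 0.11 (limma adjusted p = 0.0717 at 4 h and 0.225 at 24 h). TFE3 and ATF4, of the same group, are also named after their values were seen. TFE3 measured 619 ± 19.5, 488 ± 88.5 and 480 ± 86.1 in the 3 groups, lower without overlap at both times. ATF4 was higher without overlap at both times, with log2 changes of 0.53 ± 0.13 at 4 h and 0.34 ± 0.13 at 24 h. Neither gene passed in limma. FOXO3, also named after its values were seen, measured 229, 211 and 184 untreated, 427, 372 and 630 at 4 h, and 335, 407 and 418 at 24 h (limma adjusted p = 0.0612 at 4 h and 0.084 at 24 h).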

How the data were processed

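One-colour Affymetrix arrays of 54675 probe sets were read for 9 samples, 3 per group, with groups and replicate numbers from the sample titles. The authors deposited linear intensity values. R 2.9.2 and RMA appear in the submitters' processing notes, with no role stated. Every array has the same trimmed mean, which hides any change in total messenger RNA. The labels do not name the summarisation software, and no presence calls were used. The design text speaks of kinase inhibitors, and the treatment protocol's list of protease inhibitors was followed here.

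After 62 control probe sets were set aside, 41091 probe sets named 1 gene, 1801 several and 11721 none in the platform annotation, and 41037 symbols were updated through RefSeq. Dim genes were kept: 39.6% of all genes, and 1 member, had a mean intensity below the pseudocount of 16. The probe set kept per gene was that of highest mean log2(intensity + 16). This was settled after the calls under mean intensity had also been seen; the latter picks another probe set for 98 genes and for 0 members. All 9 arrays entered 1 fit with 3 group means (limma 3.58.1, R 4.3.3, two-sided), checked on simulated data.

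The members, their roles, the wider list of 68 pathway genes and the promoter motifs were chosen with earlier results of these data known. Members past the threshold were named, with the 3 of smallest 24 h p in each role and 11 fixed names, and the other members are given more briefly. Of the wider list, the gene of smallest 24 h p in each of 5 groups was named. Other settings tried were pseudocounts of 1 and 64, a filter at the 40th percentile, the mean over probe sets, quantile normalization, median centring, the compared groups alone, a replicate block, array weights and each array left out. Probe sets tested singly, mean intensity as the choice of probe set, and overlap under other scalings were added after seeing the data. Precision is limited by 3 arrays a group: the median 95% interval of a member reached 0.30 to either side on the log2 scale.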

Additional observations from a re-analysis of the deposited data

Results flagged for a closer look

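NFE2L2, which encodes the oxidative stress factor NRF2, belongs to the wider pathway list and was measured above untreated at 4 h and below it at 24 h. Neither change passed in limma (adjusted p = 0.404 and 0.641). It measured 747, 755 and 787 untreated, 829, 902 and 1138 at 4 h, and 643, 671 and 736 at 24 h, so that all 4 h arrays lay above and all 24 h arrays below the untreated ones. The change at 24 h minus that at 4 h was -0.47 on the log2 scale, and this difference did not pass in limma (adjusted p = 0.242). Both changes use the same untreated arrays. Of all 19775 genes, 0.511% had arrays that did not overlap in opposite directions at the 2 times. No member met this criterion, and groups of 3 arrays are too small for a test of outlying samples.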

How the results depend on the processing

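At 24 h, 1 member was called as reported, where 0.465% of all genes were, against 0 with a pseudocount of 1 (0.00506% of all genes), 7 with 64 (4.18%), 6 with the filter at the 40th percentile (4.72%), 5 with array weights (2.81%) and 0 with the replicate block (0.00506%), and between 0 and 2 when 1 array was left out. WIPI1 was called in 11 of 19 alternatives (limma adjusted p from 0.00287 to 0.159). With a pseudocount of 64 the further calls were ATG2B, BECN1, BNIP3, EPG5, OPTN and SQSTM1. At 4 h the count was 0, and 1 with a pseudocount of 64 (1.38% of all genes). For 24 h against 4 h it was 0, with 4 at a pseudocount of 64 (1.27%) and 2 with the filter (1.07%). Choosing probe sets by mean intensity left the 3 counts of members at 0, 1 and 0, with 93 calls over all genes at 24 h in place of 92. Over all settings, calls over all genes ranged from 2 to 273 at 4 h, from 0 to 826 at 24 h and from 1 to 251 between the times. Members without overlap numbered 8 at 4 h (9 to 18 with 1 array left out, and 25% to 32.3% of all genes), 22 at 24 h (23 to 26, and 32.8% to 36% of all genes) and 11 between the times (12 to 18, and 23.8% to 28.4%), fewer arrays leaving fewer ways to overlap. Of the wider pathway list, where no gene was called as reported, alternatives called FOXO1 (7 of 19), FOXO3 (5) and DDIT3 (3) at 24 h, FOXO3 and SESN2 (3 each) and ATF4, ATG4D, RAB7A, SH3GLB1 and TFEB (1 each) at 4 h, and SESN2 (2) and SH3GLB1 (1) between the times.

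The replicate numbers were not taken to pair the arrays. Deviations of same-numbered arrays correlated between -0.0441 and 0.0573, and those of differently numbered arrays between -0.0465 and 0.0794. Of 18 best matches in another group, 13 had the same number, a hint from the data and not the design. The replicate block reduced the calls over all genes at 24 h from 92 to 1.

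Of 1365 values of named members under the alternatives, 52 turned sign, in 26 of 72 results, and 4 of the 52 belonged to results without overlap. With the mean over probe sets these were, at 4 h, ATG13 (-0.02), ATG5 (0.00), EPG5 (-0.02), NBR1 (0.12), OPTN (-0.02), PIK3R4 (-0.08), SQSTM1 (0.08) and ULK2 (0.01), at 24 h BNIP3L (0.01), NBR1 (0.09) and PIK3R4 (-0.03), and between the times ATG2B (-0.02), PIK3C3 (-0.01) and PIK3R4 (0.05). Median centring turned ATG13 (-0.02), OPTN (-0.01) and ULK1 (-0.01) at 4 h and PIK3R4 (0.02) between the times. Quantile normalization turned ULK1 (-0.02) at 4 h, a pseudocount of 1 and array weights turned ULK2 (0.07 and 0.03) at 4 h, and a pseudocount of 64 turned ULK1 (0.00) at 24 h. With 1 array left out, values crossing 0 at 4 h ran from -0.22 to 0.31 for ATG13, -0.09 to 0.06 for ATG4A, -0.02 to 0.18 for ATG4B, -0.26 to 0.02 for ATG5, -0.01 to 0.15 for ATG7, -0.13 to 0.02 for BNIP3L, -0.01 to 0.06 for OPTN, -0.06 to 0.09 for ULK1 and -0.22 to 0.15 for ULK2. At 24 h they ran from -0.07 to 0.01 for BNIP3L, -0.33 to 0.32 for ULK1 and -0.06 to 0.31 for ULK2. Between the times they ran from -0.18 to 0.36 for ATG13, -0.06 to 0.09 for BNIP3L, -0.17 to 0.05 for NBR1, -0.06 to 0.04 for PIK3R4, -0.36 to 0.30 for ULK1 and -0.01 to 0.24 for WIPI2. The cause of these changes was not tested.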
